A study of Mus musculus with 12 samples.

Results

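Whether the difference in gene expression between proximal and distal ascending aorta depended on Notch1 genotype was examined in all 12 libraries of the series, which come from 6 mice. For each mouse, log2(RPKM + 0.5) of its distal library was subtracted from that of its proximal library, and the 3 mice labelled Notch1+/- were then compared with 3 wildtype mice. RPKM gives reads relative to transcript length and sequencing depth, and the added 0.5 understates differences of genes with low values. Of 21954 genes in the deposited table, 17297 reached at least 1 RPKM in at least 3 libraries and were tested. The tested mice carry the strain label Notch1.129S6+/- and the genotype label Notch1, and the controls are wildtype 129S6 littermates, all 2 months old. Each combination of genotype and location holds 3 libraries, 1 per mouse, and no agent was given to any group. The study asked why the aorta of the heterozygous animals widened at its root and not along its length. Below, "genotype dependence" is the mean proximal-minus-distal difference of the mice labelled Notch1+/- minus that of the wildtype mice, in log2 units.

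Notch receptors are cleaved after binding a Jagged or Delta ligand on a neighbouring cell, and the freed intracellular domain joins the DNA-binding protein Rbpj to switch on Hes and Hey repressor genes. In the outflow tract this signal acts in endothelial, neural crest and second heart field cells that build the valves and the aortic wall. The proximal ascending aorta lies next to the valve and the heart, while the distal part runs toward the arch, so the cell lineages and the neighbouring tissue differ along its length.

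Notch1 itself stood at 2.20, 1.65 and 1.63 RPKM in proximal and 1.18, 1.85 and 1.51 RPKM in distal libraries labelled Notch1+/-. In wildtype libraries it stood at 1.11, 1.19 and 1.56 RPKM proximally and 1.12, 0.972 and 0.539 RPKM distally. At each location every library labelled Notch1+/- lay above every wildtype library, against the direction the label gives for a gene present in 1 copy. The sources used here do not say which exons the allele lacks, so a value over the whole gene does not check the label, and the groups are named by their labels throughout. Its genotype dependence was -0.18 (95% interval -1.13 to 0.77, limma adjusted p 0.999). Libraries held 26518332 to 36742096 total reads. Each mouse carries 1 submitter number in both of its pieces, which pairs the libraries, and replicates are separate mice. The smooth muscle genes Myh11 and Acta2, which define the aortic media, reached 1427 and 2620 RPKM and were above the floor in all 12 libraries. Since the samples are bulk tissue, fewer cells of a type and less RNA per cell cannot be told apart.

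No gene passed the test of genotype dependence. Limma called 0 of 17297 genes at an adjusted p under 0.05 (0%), and the lowest adjusted p was 0.454. At an unadjusted p under 0.05 there were 601 genes (3.47%), fewer than the 865 that evenly spread p-values would give. That count became 1290 without mouse 2 labelled Notch1+/- and 934 without wildtype mouse 1, and 487 to 771 without any other single mouse, with 0 genes called each time. Of these, 478 (2.76%) had a higher proximal-to-distal ratio in the mice labelled Notch1+/- and 123 (0.711%) a lower one. The 3 differences of mice labelled Notch1+/- did not overlap with those of the 3 wildtype mice for 1321 genes (7.64%), lying above them for 1020 and below for 301. Mice split at random into groups of 3 and 3 would not overlap for 10% of genes, so this share is no excess. The authors' deposited table, from a 2-way analysis of variance over all 21954 genes, lists 1 gene with an interaction false discovery rate under 0.05 and 697 with a p under 0.05 (3.17%). That gene, the small nucleolar RNA Snord98, lay at the floor, the constant that replaces undetected values, in 9 libraries and at 0.769 to 0.882 RPKM in wildtype proximal libraries, so it did not reach 1 RPKM and was not tested with limma.

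**Figure D1:**
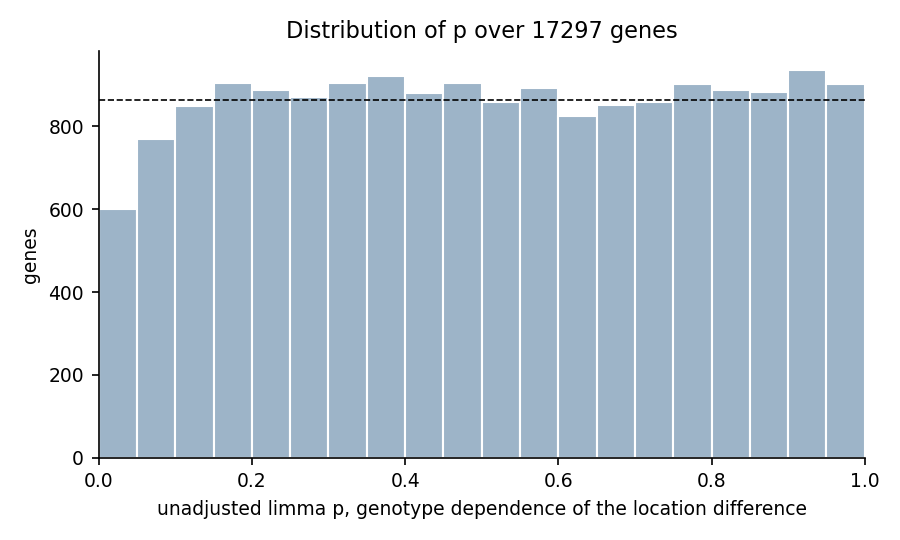
Number of genes (vertical axis) in each interval of the unadjusted limma p for genotype dependence (horizontal axis, 20 intervals of width 0.05), with a dashed line at the count that evenly spread p-values give. The first interval, p under 0.05, holds 601 genes, and it is the lowest bar.

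The size of dependence that 3 mice against 3 could resolve was limited. The 95% interval of a gene reached a median of 0.85 log2 units to either side, a factor of 1.80. It lay wholly between -1 and 1, a 2-fold change either way, for 6075 genes (35.1%), and within 2 log2 units for 88.8%. By mean level, the share within 1 log2 unit was 11.8% of 5767 genes under 2 RPKM, 53.5% of 4408 genes at 5 to 20 RPKM and 70.6% of 340 genes at 100 RPKM and over. The interval thus left room for more than 2-fold dependence in most genes of low level.

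Most genes leaned the same way by a small amount in the deposited RPKM, and the size of that lean depended on the scaling. The median genotype dependence over all tested genes was 0.16 log2 units, with 68.7% above 0. It was -0.01 with the libraries scaled by the median of ratios, -0.01 with quantile normalization and 0.25 after setting every library to 1 common sum. Median-of-ratios scaling and quantile normalization align the libraries and so remove a shift common to most genes. A median near 0 thus follows from them and is no finding. In the deposited RPKM with 1 mouse left out, the median ran between 0.06 (without mouse 3 labelled Notch1+/-) and 0.28 (without mouse 2). It was 0.08 without wildtype mouse 2 and 0.24 without wildtype mouse 1. With median-of-ratios scaling the genes at an unadjusted p under 0.05 split into 350 with a higher and 326 with a lower ratio in the mice labelled Notch1+/-, where the deposited RPKM gave 478 and 123. That more even split is likewise favoured by the alignment. Mitochondrially encoded genes made up 24.1% to 43.7% of each library's RPKM total, and all 13 had a dependence below 0 (median -0.14) beside the genome median of 0.16. With every library set to a common sum of all other genes, the median dependence was 0.24. Genes at an unadjusted limma p under 0.05 were then 768 with a higher and 96 with a lower ratio in the mice labelled Notch1+/-. The part of the mitochondrially encoded genes in the lean was not tested further. In what follows, a dependence near 0.16 is that of the median gene.

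The location difference itself was found in both genotypes. In the mice labelled Notch1+/-, 31 genes differed by location (0.179%), 27 higher in proximal and 4 higher in distal tissue. In wildtype mice 21 genes did (0.121%), 12 higher proximally and 9 distally. Averaged over the genotypes, 233 genes differed (1.35%), 127 higher proximally and 106 distally. In both genotypes 14 genes were called, which is 45.2% of the list of mice labelled Notch1+/- and 66.7% of the wildtype list. The shared genes were the cartilage and matrix genes Clec3a, Chad, Thbs4 and Col8a1, the secreted factors Spp1, Ptn and Igfbp3, the muscle genes Ankrd1 and Des, the transcription factor Tbx20, Dio2, Car8, Abcc9 and 1500015O10Rik.

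A call in 1 genotype was not in itself a difference between genotypes. Of the 31 genes called in the mice labelled Notch1+/-, 29 had the same sign in wildtype mice, 28 of them at an unadjusted p under 0.05. Among all 17297 genes, 1506 of either sign reached that p in wildtype mice. Of the 21 called in wildtype mice, 20 had the same sign in the mice labelled Notch1+/-, 19 at an unadjusted p under 0.05, beside 1419 of either sign among all. Both genotypes share 1 estimate of spread in the fit. The 31 genes had a median absolute difference of 2.73 log2 units in the mice labelled Notch1+/-, whose values chose them, and 2.09 along the same sign in wildtype mice. The 21 genes had a median of 2.19 in the mice labelled Notch1+/- and 2.43 in wildtype mice, whose values chose them. In each list the larger median was that of the genotype that chose it. Of the 38 genes called in either genotype, 13 had an unadjusted p under 0.05 for genotype dependence, and the choice by 1 genotype favours such values.

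The 233 genes called on the average, a choice that does not use the genotype contrast, were described in the same way. All but 1 had the same sign in both genotypes, which the averaging itself favours. An unadjusted p under 0.05 for dependence was reached by 17 (7.30%, 15 with a higher and 2 with a lower ratio in the mice labelled Notch1+/-), and mouse differences did not overlap for 23 (9.87%), beside 3.47% and 7.64% over all genes. The average and the dependence share 1 estimate of spread per gene, so a choice by small p for the average can favour small p for dependence. The 95% interval lay within 1 log2 unit for 71 of them (30.5%). The 127 genes higher in proximal tissue had a median location difference of 1.93 in the mice labelled Notch1+/- and 1.57 in wildtype mice, and 85 of them had a dependence above the genome median. The 106 genes higher in distal tissue had medians of -0.94 in the mice labelled Notch1+/- and -1.10 in wildtype mice, and 52 had a dependence above the genome median. Across the 17297 genes the location differences of the genotypes correlated at r = 0.460 (Spearman rho 0.305), and at r = 0.682 over the 6165 genes with a mean of at least 5 RPKM. Genes are not independent replicates, so these are descriptions.

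**Figure D2:**
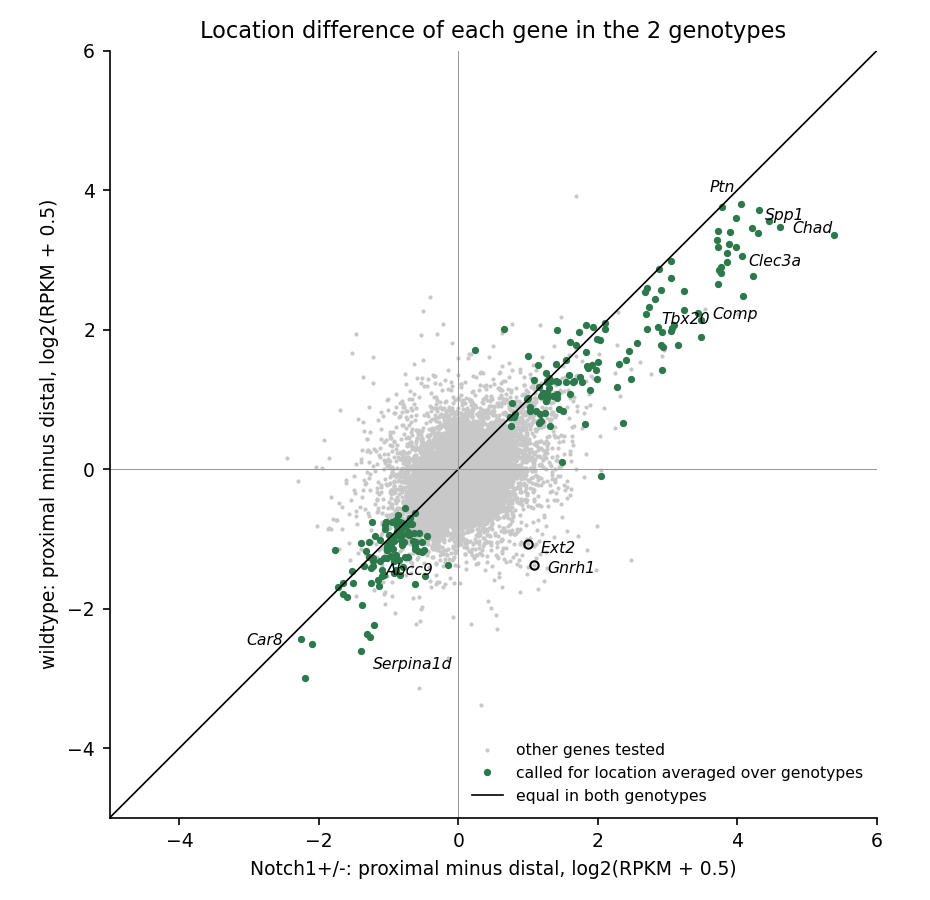
Proximal-minus-distal difference of each of 17297 genes in log2(RPKM + 0.5), mean of 3 mice labelled Notch1+/- on the horizontal axis and of 3 wildtype mice on the vertical axis. Green points are the 233 genes called for location averaged over genotypes, open circles mark Ext2 and Gnrh1, and the line marks equal differences. Green points lie in the upper right and lower left, those at the upper right mostly below the line.

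The location counts moved with single mice. Without mouse 1, 2 or 3 labelled Notch1+/- the count in that genotype was 9, 2 and 3, and without wildtype mouse 1, 2 or 3 it was 15, 70 and 67. The wildtype count was 14, 3 and 2 without those labelled Notch1+/- and 2, 20 and 5 without those of wildtype, and the averaged count was 110, 39 and 57, and 72, 197 and 93, in the same orders. Genotype dependence remained at 0 called genes in all 6 cases. Single mice of a genotype resembled each other weakly over the whole transcriptome. The correlation between the difference profiles of 2 mice was 0.179 to 0.258 among mice labelled Notch1+/- (3 pairs), 0.104 to 0.179 among wildtype mice (3 pairs) and 0.046 to 0.350 between genotypes (9 pairs). The pairs between genotypes thus spanned the values found within them.

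The genes with the smallest p for dependence are described next by their values, since their p chose them, and none passed the adjusted test. Among named genes with a dependence of at least 1 log2 unit, no overlap of mice and a mean of at least 2 RPKM, 44 had a higher ratio in the mice labelled Notch1+/- and 3 a lower one. Counting every gene name, these were 117 and 25, and with median-of-ratios scaling 73 and 52.

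Ext2 encodes a glycosyltransferase that, with Ext1, polymerizes the heparan sulfate chains of cell surface and matrix proteoglycans. It lies on mm10 chromosome 2 (93661028 to 93822568, minus strand) and shares no exon bases with another gene. It stood at 15.7, 13.2 and 15.01 RPKM in proximal and 9.05, 5.14 and 7.45 RPKM in distal libraries labelled Notch1+/-, against 13.7, 9.91 and 4.50 RPKM in proximal and 27.2, 16.7 and 14.0 RPKM in distal wildtype libraries. In each of the 3 mice labelled Notch1+/- the proximal value was the higher one, and in each of the 3 wildtype mice the distal value was. The mouse differences were 0.77, 1.28 and 0.96 in the mice labelled Notch1+/- and -0.96, -0.73 and -1.54 in wildtype mice. The dependence was 2.08 log2 units (SE 0.30, 95% interval 1.39 to 2.77, limma adjusted p 0.454). An exact 2-sided permutation test of the 6 differences gave p = 0.1, the smallest that 3 against 3 allow. Every gene chosen for no overlap of mice has that p, so it adds nothing to the choice. The values correspond to an estimated 577 to 2881 reads per library, so counting error is small beside the spread between mice. With median-of-ratios scaling the dependence was 1.90.

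Gnrh1, the precursor of gonadotropin-releasing hormone, had the same crossed pattern at low levels. It stood at 3.44, 2.47 and 3.95 RPKM in proximal and 1.14, 1.42 and 1.22 RPKM in distal libraries labelled Notch1+/-, against 2.49, 1.10 and 0.158 RPKM in proximal and 5.70, 2.29 and 2.65 RPKM in distal wildtype libraries. Every mouse labelled Notch1+/- was higher proximally and every wildtype mouse distally. The dependence was 2.46 (SE 0.45, adjusted p 0.999). Its RPKM did not give whole reads, so no read number is printed for it. The value of 0.158 RPKM is the floor, a constant that the authors put in place of values under a library's detection threshold.

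Krtcap2, a subunit of the oligosaccharyltransferase that attaches glycans to proteins in the endoplasmic reticulum, had 5.18, 3.77 and 3.49 RPKM in proximal and 2.58, 3.24 and 2.65 RPKM in distal libraries labelled Notch1+/-. In wildtype libraries it had 2.89, 3.43 and 2.63 RPKM proximally and 7.49, 5.78 and 7.38 RPKM distally. The wildtype distal libraries were the 3 highest of all 12. Its dependence was 1.55 (SE 0.32, adjusted p 0.999), 15.7% of its exon bases lie opposite another gene, and the library kit does not mark the strand. The authors' deposited table gives it an interaction p of 0.000158 and a false discovery rate of 0.694.

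Clca3a1, of the calcium-activated chloride channel regulator family, was called for location in the mice labelled Notch1+/- (adjusted p 0.00272) and not in wildtype mice (adjusted p 0.0808). Its proximal libraries stood at 5.57, 4.40 and 3.61 RPKM in the mice labelled Notch1+/- and at 6.43, 5.69 and 1.45 RPKM in wildtype mice. Distally all 3 libraries labelled Notch1+/- lay at the floor of 0.158 RPKM, against 1.93, 2.19 and 0.158 RPKM in wildtype mice. The genotypes overlapped proximally, and distally 1 wildtype library was at the floor too. Proximal tissue was thus at least 28.7-fold higher in the mice labelled Notch1+/- and 3.18-fold higher in wildtype mice, and the dependence of 1.49 (SE 0.33, adjusted p 0.999) depends on where the floor lies.

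Of the 12 with the smallest p among those 44 genes, the rest were the following. Polr3gl, a subunit of RNA polymerase III, had a dependence of 1.30 (SE 0.33), Polr2h, a subunit shared by the nuclear RNA polymerases, 1.42 (SE 0.39), and Haus2, of the augmin complex that nucleates spindle microtubules, 1.11 (SE 0.31). In all 3 the wildtype mice were higher distally in every pair. The processed pseudogenes Rps12-ps1, Apc-ps1 and Rps27a-ps1 had values of 1.33, 1.40 and 1.74. Their likeness to other copies was not measured here, so their reads are uncertain. The microRNA genes Mir3473c and Mir6240 had 2.67 and 2.81 on at most 31 and 20 reads a library, and 80.3% of Mir3473c lies within another gene on the same strand. The 3 genes with a lower ratio in the mice labelled Notch1+/- were Mir1668 (-3.40), Mir5110 (-2.34) and Pou5f2 (-1.17), a POU transcription factor gene known from male germ cells, at up to 25, 15 and 70 reads.

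**Figure D3:**
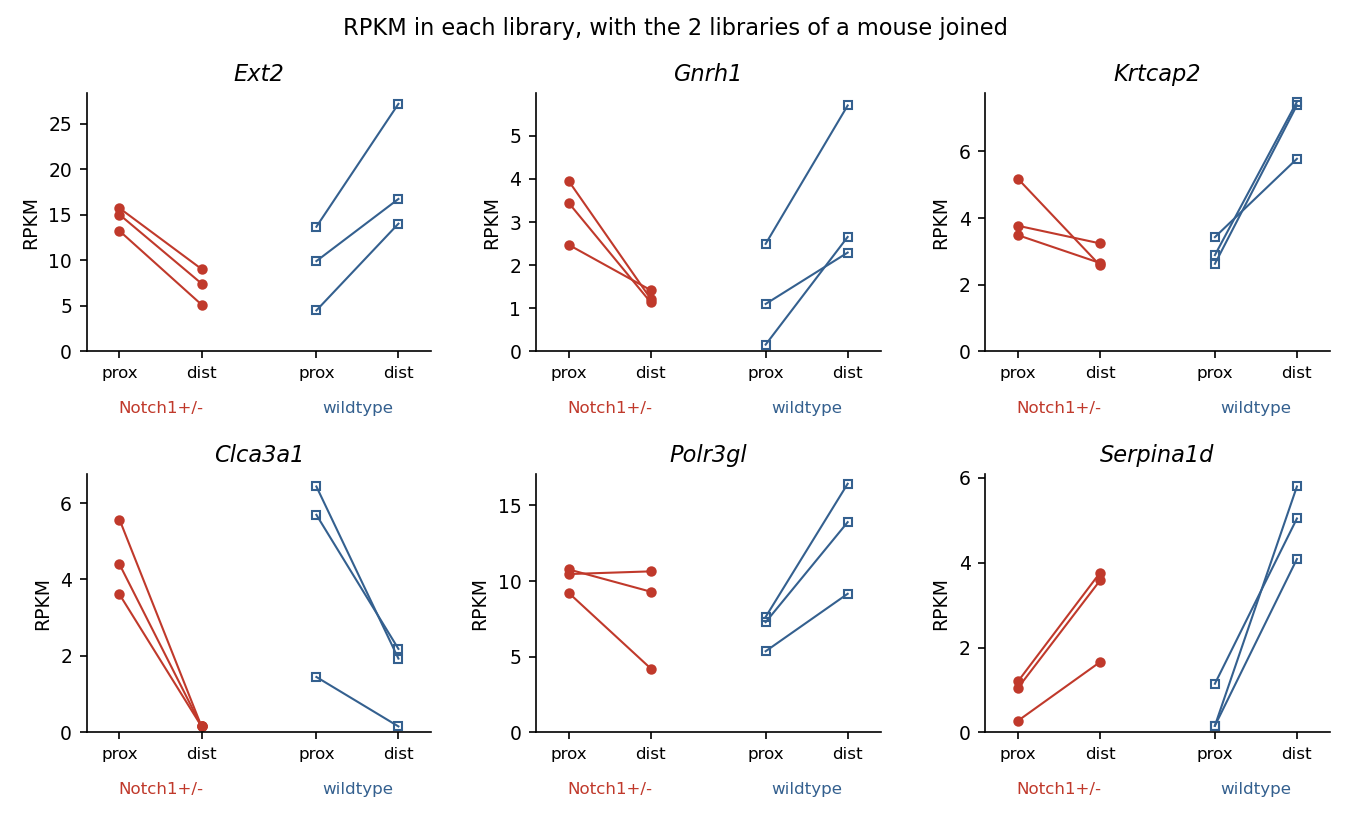
RPKM of 6 genes in each library (vertical axis, linear and starting at 0), with the proximal and distal library of a mouse joined, mice labelled Notch1+/- on the left in red and wildtype mice on the right in blue. Lines of Ext2, Gnrh1 and Krtcap2 slope down in the mice labelled Notch1+/- and up in the wildtype mice, while those of Clca3a1 and Serpina1d slope the same way in both.

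Short transcripts were common among the small p-values. Genes with an unadjusted p under 0.05 had a median of 612.5 exon bases, against 2871 over all tested genes. Small and structural RNAs made up 7.19% of tested genes, 19.97% of those with p under 0.05 and 21 of the 50 with the smallest p. Pseudogenes made up 16.0% of tested genes and 29.95% of those with p under 0.05, while protein-coding genes made up 63.6% and 32.4%. Per the labels' protocols, RNA was bound to columns in a way that keeps small RNA, and cDNA was amplified before sequencing. What these steps contribute to the small p-values was not tested.

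Among 19 genes known from earlier results of these data to be higher proximally, every location difference had the same sign in all 6 mice. Their median dependence was 0.42, with 12 above the genome median 1 at an unadjusted p under 0.05 and 0 called. That list was chosen on these libraries, so its direction by location is no finding here, and only the contrast of genotypes is read.

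No cartilage or valve gene passed the test of genotype dependence. Of 14 measured genes, 12 had a dependence above 0 and 10 above the genome median, 1 had an unadjusted p under 0.05, 0 were called, and the median was 0.52 (0.37 with median-of-ratios scaling). The median location difference over these 14 genes was 1.40 in the mice labelled Notch1+/- and 1.29 in wildtype mice. By mouse it was 1.56, 1.08 and 1.26 in the mice labelled Notch1+/- and 1.14, 0.69 and 1.86 in wildtype mice, so the genotypes overlapped, and the highest and the lowest were both wildtype mice. Clec3a, a C-type lectin of cartilage, stood at 8.56, 10.9 and 10.4 RPKM in proximal libraries labelled Notch1+/- and at 5.33, 4.56 and 6.67 RPKM in proximal wildtype libraries. All 6 distal libraries lay at the floor. The proximal groups did not overlap, and the dependence was 0.80 (SE 0.32, 95% interval 0.08 to 1.53, adjusted p 0.999), on 47 to 113 proximal reads. Because the distal value is 1 constant, the dependence of Clec3a is the difference between the genotypes in proximal tissue alone, and its SE holds no distal spread.

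Chad, a leucine-rich matrix protein of cartilage, stood at 88.2, 70.2 and 65.3 RPKM in proximal and 3.65, 4.48 and 0.858 RPKM in distal libraries labelled Notch1+/-. In wildtype mice it stood at 65.0, 25.6 and 92.9 RPKM proximally and 2.88, 5.85 and 4.87 RPKM distally. The genotypes overlapped at both locations. The mouse differences were 4.42, 3.83 and 5.60 in the mice labelled Notch1+/- and 4.28, 2.04 and 4.12 in wildtype mice, a dependence of 1.14 with a 95% interval of -0.32 to 2.59. Wildtype mouse 2 had the smallest difference of Chad and also of Comp, Hapln1, Thbs1 and Spp1.

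Comp, the cartilage oligomeric matrix protein, had a dependence of 1.19 (interval -0.39 to 2.76), Prg4, which encodes the joint lubricant lubricin, 0.88 (-0.49 to 2.24), and Hapln1, which links hyaluronan to proteoglycans, 0.42 (-0.68 to 1.52). Sox9, a master factor of cartilage cells, had -0.11 (-1.48 to 1.26). The tendon factor Scx, which was not called for location, had 0.68 (-0.01 to 1.36), with all 3 mice labelled Notch1+/- above all 3 wildtype mice. Over all genes tested, 5.90% had that order of mice. The sign of Sox9 opposed that of the matrix genes, but its interval spans theirs.

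Several of the strongest location genes had almost equal differences in both genotypes. Ptn, the heparin-binding growth factor pleiotrophin, stood at 11.2, 11.3 and 11.4 RPKM in proximal and 0.158, 0.377 and 0.588 RPKM in distal libraries labelled Notch1+/-. In wildtype mice it stood at 15.1, 8.83 and 19.6 RPKM proximally and 0.644, 0.395 and 0.638 RPKM distally. No proximal library overlapped a distal one in either genotype. The location difference was 3.79 log2 units in the mice labelled Notch1+/- (adjusted p 0.000573) and 3.77 in wildtype mice (adjusted p 0.0012), and the dependence was 0.02 with a 95% interval of -0.73 to 0.77. Igfbp3, which binds insulin-like growth factors, had 0.00 (-1.02 to 1.03), and Thbs4, a thrombospondin of tendon and heart whose distal libraries all lay at the floor, 0.13 (-0.94 to 1.19). Spp1, which encodes osteopontin, had 0.75 (-0.33 to 1.84), and Thbs1, whose product can activate TGF-beta, 1.02 (-0.62 to 2.67), a sign that turned without mouse 1 labelled Notch1+/- and wildtype mouse 2.

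No cardiac transcription factor passed the test either. The 7 measured factors had a median dependence of 0.01, with 2 above the genome median, 0 with an unadjusted p under 0.05 and 0 called. Hand2, a factor of the second heart field and neural crest, stood at 23.1, 19.2 and 18.8 RPKM in proximal and 10.7, 10.1 and 9.24 RPKM in distal libraries labelled Notch1+/-, against 22.3, 21.8 and 21.4 RPKM and 10.9, 12.0 and 9.10 RPKM in wildtype mice. The genotypes overlapped at each location and the locations did not overlap in either genotype. The mouse differences lay between 0.83 and 1.19 in all 6 mice, and the dependence was -0.02 with a 95% interval of -0.58 to 0.53. Tbx20, a T-box factor of the heart and valves, had 0.41 (-0.40 to 1.22), Gata4, a zinc finger factor of heart formation, 0.11 (-1.16 to 1.38), and Tcf21, a factor of epicardial and adventitial cells, -0.58 (-1.49 to 0.34). Ankrd1, a stretch-responsive protein of muscle, was higher proximally in both genotypes (3.24 and 2.28, adjusted p 0.00799 in the mice labelled Notch1+/- and 0.0416 in wildtype mice), with a dependence of 0.95 (-0.04 to 1.95).

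**Figure D4:**
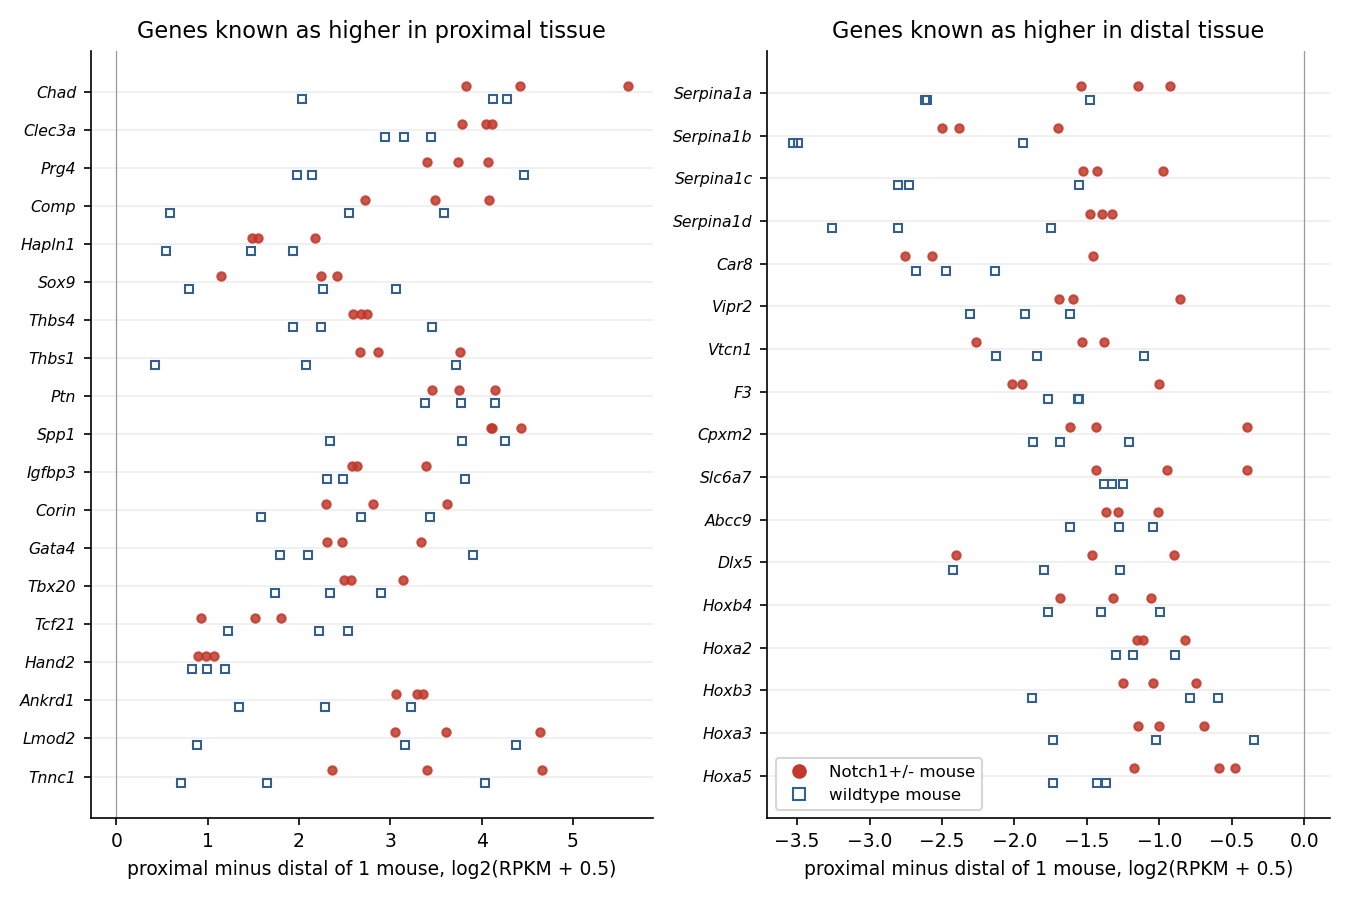
Proximal-minus-distal difference of single mice in log2(RPKM + 0.5) (horizontal axis) for 19 genes known from these data as higher proximally (left panel) and 17 known as higher distally (right panel), with mice labelled Notch1+/- as red circles above wildtype mice as open blue squares in each row. Hand2 spans 0.83 to 1.19 over all 6 mice, and for Serpina1d the circles lie to the right of every square.

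Hox genes record position along the body axis, and those tested were lower proximally than distally in every mouse. Hoxa2, Hoxa3, Hoxa5, Hoxb3 and Hoxb4 had been chosen on these libraries as higher distally, so that direction is no finding here. All 6 measured Hox genes had a dependence above 0, of which 2 lay above the genome median, 0 had an unadjusted p under 0.05 and 0 were called, and the median was 0.09 (-0.08 with median-of-ratios scaling). Hoxb4 had 0.03 (95% interval -0.83 to 0.89), Hoxa2 0.09 (-0.51 to 0.70), Hoxa3 0.09 (-0.77 to 0.95) and Hoxb3 0.07 (-0.81 to 0.96), where reads of Hoxb3 and Hoxa3 are uncertain because 52.9% and 25.4% of their exon bases lie opposite another gene. Hoxa5 had 0.76 (-0.27 to 1.80). It stood at 0.785, 0.158 and 0.750 RPKM in proximal libraries labelled Notch1+/- and at the floor in all 3 proximal wildtype libraries. Its distal values were 1.29, 0.985 and 1.38 RPKM in the mice labelled Notch1+/- and 1.69, 1.27 and 1.20 RPKM in wildtype mice, and these overlapped.

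Serpina1a, Serpina1b, Serpina1c and Serpina1d, which encode alpha-1 antitrypsin, a blood-borne inhibitor of neutrophil elastase, were all called for location in wildtype mice, and 0 of the 4 in the mice labelled Notch1+/-. Serpina1d stood at 0.276, 1.05 and 1.20 RPKM in proximal and 1.66, 3.58 and 3.76 RPKM in distal libraries labelled Notch1+/-. In wildtype mice it stood at 0.158, 0.158 and 1.15 RPKM proximally and 5.80, 4.09 and 5.04 RPKM distally. Distal libraries were higher in all 6 mice, and the wildtype distal libraries were the 3 highest. The location difference was -1.40 in the mice labelled Notch1+/- (adjusted p 0.169) and -2.60 in wildtype mice (adjusted p 0.0235). The dependence was 1.20 (95% interval 0.23 to 2.18, unadjusted p 0.0206, adjusted p 0.999). Serpina1a, Serpina1b and Serpina1c had 1.03, 0.79 and 1.05, with unadjusted p of 0.0383, 0.135 and 0.0334. Distal tissue was at least 10.2-fold higher for Serpina1d in wildtype mice, where 2 of 3 proximal libraries lay at the floor, and 3.56-fold higher in the mice labelled Notch1+/-.

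These 4 values are not independent of each other. Over the 6 pairs, the longest annotated transcripts are 93.59% to 98.45% identical and the promoters 91.7% to 94.9%, so the split of reads among the copies is uncertain and the group counts as about 1 measurement. The promoters, 250 bases before to 50 after the start of each gene on the minus strand of chromosome 12, are taken from RefSeq on build GRCm38.p6. They are shown for Serpina1a (chr12:103863570-103863869) and Serpina1d (chr12:103773584-103773883) to let the likeness of the copies be seen. Capitals mark the only match on either strand to GTTAAT, a half-site of the liver factor HNF1.
Serpina1a: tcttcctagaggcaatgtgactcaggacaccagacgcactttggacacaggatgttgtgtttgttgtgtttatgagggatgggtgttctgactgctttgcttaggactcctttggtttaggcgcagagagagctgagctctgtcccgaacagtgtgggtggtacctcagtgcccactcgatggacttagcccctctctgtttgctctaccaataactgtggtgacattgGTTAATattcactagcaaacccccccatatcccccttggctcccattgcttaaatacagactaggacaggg
Serpina1d: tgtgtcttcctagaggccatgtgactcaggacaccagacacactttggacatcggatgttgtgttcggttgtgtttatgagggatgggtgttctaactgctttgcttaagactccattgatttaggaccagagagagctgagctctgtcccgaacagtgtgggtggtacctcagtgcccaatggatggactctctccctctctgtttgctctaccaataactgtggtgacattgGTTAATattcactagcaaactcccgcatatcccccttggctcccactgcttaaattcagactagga
Each of the 4 copies holds 1 match, and 7.10% of the 32851 promoters of this length hold at least 1. None of the 4 holds TGGGAA, the core bound by Rbpj, on either strand, and 25.6% of promoters do. A match is a description of letters, and the lack of one says only that these letters are absent from this window.

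The other genes known as higher distally lay on both sides of the median gene. Over all 17 the median dependence was 0.24, 10 lay above the genome median, 3 had an unadjusted p under 0.05, all of them Serpina1 copies, and 0 were called. This list, with the Serpina1 copies and Hox genes in it, was also chosen on these libraries. Its direction by location is thus no finding here. Car8, an inactive relative of carbonic anhydrases, stood at 0.482, 0.957 and 0.604 RPKM in proximal and 2.19, 8.14 and 6.96 RPKM in distal libraries labelled Notch1+/-, against 0.467, 0.476 and 0.504 RPKM and 4.88, 5.76 and 3.92 RPKM in wildtype mice. Its distal values were more scattered in the mice labelled Notch1+/-, enclosing those of wildtype mice. The dependence was 0.17 (-0.76 to 1.10). F3, the tissue factor that starts coagulation, had -0.03 (-0.78 to 0.73), Vtcn1, an inhibitory ligand of T cells, -0.03 (-0.91 to 0.84), and Abcc9, part of a potassium channel closed by ATP, 0.09 (-0.49 to 0.67). Higher values were those of Vipr2 at 0.57 (-0.47 to 1.60), Cpxm2 at 0.44 (-0.43 to 1.30), Slc6a7 at 0.39 (-0.35 to 1.13) and Dlx5 at 0.24 (-0.86 to 1.34).

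No Notch pathway gene passed the test of genotype dependence. Of 27 listed genes 18 were tested, with 12 above and 6 below 0, 8 above and 10 below the genome median, 0 with an unadjusted p under 0.05 and 0 called. Their median dependence was 0.08, and -0.07 with median-of-ratios scaling. Among receptors, Notch2 had 0.16 (95% interval -0.51 to 0.84) and Notch3, the receptor of vascular smooth muscle, 0.13 (-0.48 to 0.74). Notch3 was called for location on the average (adjusted p 0.0491), being higher proximally by 0.75 log2 units in the mice labelled Notch1+/- and by 0.62 in wildtype mice. Its mouse differences were 0.77, 0.80 and 0.69 in the mice labelled Notch1+/- and 0.59, 0.64 and 0.64 in wildtype mice, which did not overlap. Its dependence lay below the genome median of 0.16, and was -0.03 with median-of-ratios scaling. In the list, 3 genes (Notch3, Jag1 and Rfng) had the mice labelled Notch1+/- wholly above wildtype mice, and 1 (Maml1, -0.27) wholly below. Over all genes 7.64% did not overlap.

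Jag1, a ligand that smooth muscle cells need to take on their contractile form, had a dependence of 0.40 (-0.22 to 1.01). It stood at 5.81, 5.51 and 6.85 RPKM in proximal and 4.38, 5.65 and 6.77 RPKM in distal libraries labelled Notch1+/-, against 3.93, 3.88 and 6.13 RPKM and 4.71, 5.63 and 6.71 RPKM in wildtype mice. All 3 wildtype mice had less Jag1 proximally than distally, and 1 of the mice labelled Notch1+/- did. Rfng, a fringe glycosyltransferase that alters which ligands Notch receptors respond to, had the largest value of the list at 0.71 (-0.06 to 1.47). Among targets, Hes1 had 0.49 (-0.68 to 1.65), Hey1 0.04 (-0.75 to 0.83), Hey2 -0.10 (-0.83 to 0.64) and Heyl -0.17 (-0.83 to 0.48). Rbpj, the DNA-binding partner, had 0.33 (-0.37 to 1.03). The targets lay on both sides of 0 and of the median gene.

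**Figure D5:**
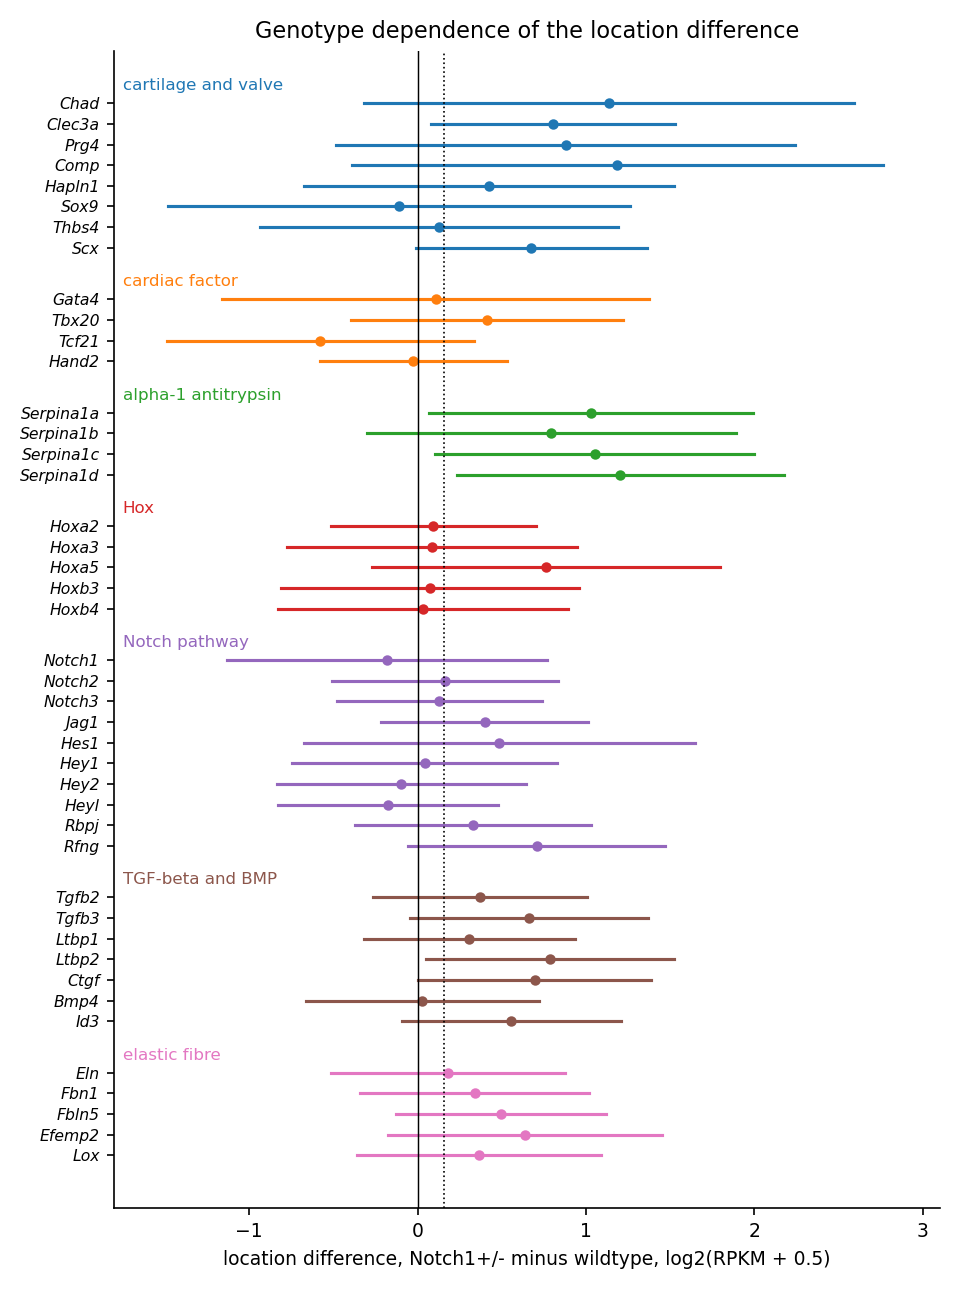
Genotype dependence of the location difference (horizontal axis, mice labelled Notch1+/- minus wildtype mice, log2(RPKM + 0.5)) for named genes of 7 groups, with points for the estimate and bars for its 95% limma interval, unadjusted for the number of genes. The solid line is 0 and the dotted line the median of all genes at 0.16, and bars of Clec3a, Ltbp2, Ctgf and 3 Serpina1 copies stay above 0.

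TGF-beta and BMP genes, whose signal governs matrix production in the aortic wall, held 2 of 28 with an unadjusted p under 0.05, both with a higher ratio in the mice labelled Notch1+/-, beside 2.76% over all genes, and 0 called. The median was 0.20 and 18 lay above the genome median. Ltbp2, a latent TGF-beta binding protein of microfibrils, stood at 10.6, 6.44 and 4.84 RPKM in proximal and 8.47, 9.99 and 6.45 RPKM in distal libraries labelled Notch1+/-, against 4.10, 4.71 and 4.44 RPKM and 6.88, 10.9 and 11.0 RPKM in wildtype mice. Every wildtype mouse was lower proximally, by 0.68 to 1.21 log2 units, and the mice labelled Notch1+/- had differences of 0.31, -0.59 and -0.38. The dependence was 0.79 (0.05 to 1.52, adjusted p 0.999). Ctgf, a matricellular protein induced by TGF-beta, had 0.69 (0.01 to 1.38), with overlapping mice and 23.2% of its exon bases opposite another gene. The ligand Tgfb3 had 0.66 (-0.05 to 1.37), Tgfb2 0.37 (-0.26 to 1.01), and Id3, an inhibitor of differentiation induced by BMP, 0.56 (-0.09 to 1.21).

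Elastic fibre genes had a median of 0.28 over the 15 members tested, of 16 in the deposited table. Of these, 10 lay above the genome median, 0 had an unadjusted p under 0.05 and 0 were called. Fbln5, a fibulin that assembles elastin onto microfibrils, had 0.50 (-0.13 to 1.12), Efemp2, the fibulin that brings lysyl oxidase to elastin, 0.64 (-0.17 to 1.45), and Eln, elastin itself, 0.18 (-0.51 to 0.87). Eln was lower proximally in all 6 mice, by 0.66 to 0.82 log2 units in the mice labelled Notch1+/- and by 0.27 to 1.32 in wildtype mice. Contractile smooth muscle genes stayed close together, with a median of 0.04 over 18 genes, 4 above the genome median and a range of -0.17 to 0.42. Collagen chains had a median of 0.21 over 16 genes, proteoglycans 0.12 over 13 and matrix proteases with their inhibitors 0.25 over 12, with 0 genes at an unadjusted p under 0.05 in each.

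Transcripts of heart muscle varied more between mice than between genotypes. Of 36 listed markers 34 were tested, 28 had a dependence above 0, 23 lay above the genome median, 1 had an unadjusted p under 0.05, 0 were called, and the median was 0.57. Their summed level was 1606 to 1948 RPKM in proximal and 476 to 1032 RPKM in distal libraries labelled Notch1+/-, against 1008 to 3009 RPKM and 558 to 1268 RPKM in wildtype mice. Myh6, the myosin of atrial and adult mouse heart muscle, stood at 174, 155 and 213 RPKM in proximal and 48.0, 4.93 and 2.31 RPKM in distal libraries labelled Notch1+/-, against 63.2, 179 and 354 RPKM and 2.12, 119 and 5.30 RPKM in wildtype mice. One distal library of each genotype, mouse 1 labelled Notch1+/- and wildtype mouse 2, was far above the others. The dependence of Myh6 was 0.60 with a 95% interval of -2.58 to 3.78, and that of the cardiac troponin T gene Tnnt2 0.89 (-1.91 to 3.69).

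Over the tested heart muscle markers the median difference was 1.73, 3.02 and 3.91 in mice 1, 2 and 3 labelled Notch1+/- and 2.00, 0.61 and 3.99 in the wildtype mice. Wildtype mouse 2, which had the smallest of these, also had the smallest median over the 19 proximal genes, at 1.58, where the others had 2.34 to 3.45. What heart muscle in a piece contributes to those genes was not tested. Without mouse 1 labelled Notch1+/- and wildtype mouse 2, 0 genes were called for genotype dependence, 67 for location in the mice labelled Notch1+/- and 55 in wildtype mice. With 2 mice left in each genotype, the median dependence over all genes was 0.06.

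Markers of other cell types were measured beside these results, and 0 were called. Of 14 endothelial markers 9 lay above the genome median (median 0.38), with a summed level of 73.8 to 88.0 RPKM in proximal and 71.2 to 108 RPKM in distal libraries labelled Notch1+/-, against 54.7 to 76.2 RPKM and 88.3 to 108 RPKM in wildtype mice. Cldn5, the tight junction protein of endothelium, had the highest value of the list at 1.34 (0.05 to 2.63). It reached no more than 2.45 RPKM and lay at the floor in 2 of 3 distal libraries labelled Notch1+/-. Pecam1 had 0.79 (-0.16 to 1.75), and Pecam1 and Cdh5 were above the floor in all 12 libraries. Of 14 adventitial fibroblast markers 11 lay above the genome median (median 0.28), and their summed level was 794 to 848 RPKM in proximal and 548 to 794 RPKM in distal libraries labelled Notch1+/-, against 537 to 1022 RPKM and 734 to 853 RPKM in wildtype mice. Of 11 macrophage markers tested 9 did (median 0.54), at 90.7 to 112 RPKM and 26.0 to 58.0 RPKM in libraries labelled Notch1+/-, against 88.2 to 127 RPKM and 32.8 to 104 RPKM in wildtype mice. Brown fat markers had a median of 1.07 over 5 genes, which is the value of Cox7a1 (-1.02 to 3.16). Their defining gene Ucp1 lay at the floor in 6 of 12 libraries and reached 4.69 RPKM in 1 wildtype distal library, and the dependence of Ucp1 was 1.34 (-0.38 to 3.07). Averaged over the genotypes, Cox7a1 was higher proximally by 2.51 log2 units, while the difference of Ucp1 was -0.95. The brown fat list thus had no common direction by location. Red cell markers had a median of 0.04 over 5 genes, mesothelial markers 0.12 over 8 and Schwann cell and nerve markers 0.10 over 4. Lymphocyte markers were not analysed here. The part of these cells in the values above was not tested.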

How the data were processed

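RNA of 12 aortic samples was sequenced. Per the submitters' processing notes, the tools were R 3.2.2, Bowtie2 and TopHat2 2.1.0, and the build was mm10. Which tool counted reads, and over which annotation, is not given in the sources used here. Values are RPKM, which the authors deposited for each gene and library. Values below a library's own threshold (0.136 to 0.189 RPKM, which is 10 reads on a gene of 2 kb at that library's total) had been replaced by 0.157844, the mean of the 12 thresholds, per the file headers and the values. The floor is thus a fixed RPKM, whose read number grows with gene length, and 9.78% of values lie at it. A 2-way analysis of variance by the authors is deposited alongside, as p-values with false discovery rates. A further 24 columns of per-sample values were not used. RPKM times exon length of GENCODE M21 (mm10) and depth gave whole reads within 0.02 for 90.4% to 92.0% of values under 40 reads, from which the read numbers come.

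Libraries were grouped by genotype and location labels. Per-mouse differences of log2(RPKM + 0.5), proximal minus distal, of the 17297 genes with at least 1 RPKM in at least 3 of 12 libraries were fitted in limma 3.58.1 (R 4.3.3) with empirical Bayes moderation and a trend. Means of the 3 mice per genotype, their average and their difference were tested 2-sided, with Benjamini-Hochberg adjustment over all genes and calls at 0.05. The test was planned on this unit, and the fit was checked on simulated data. Named genes were, in each direction, the 12 of smallest p with a dependence of at least 1 log2 unit, no overlap of mice, a mean of at least 2 RPKM and a symbol that is no predicted or clone name; 36 location genes; the Notch genes tested; the 2 of smallest p of each other list; and the members of described lists. The members, 32 lists and rules were chosen with earlier results of these data known. The same submitter number in both pieces of a mouse gives the pairing. Same-mouse libraries deviated together from their group means (r 0.073 to 0.216 over genes). Alternatives covered pseudocount, filter, scaling, block, moderation, weights and mice left out. Fewer reads give wider intervals, and no interval here covers amplification before sequencing.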

Additional observations from a re-analysis of the deposited data

How the results depend on the processing

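Genotype dependence stayed at 0 called genes under all 20 alternatives, where the lowest adjusted p of any gene was 0.125 (array weights). The 175 named genes gave 3413 values under alternatives, of which 3382 moved by less than 1 SD, 0 passed the threshold and 270 changed sign. Of 32 genes with a dependence of at least 1 log2 unit, Thbs1, Fabp4 and Hba-a1 changed sign when 1 or 2 mice were left out. Location counts moved more, and the cause was not tested. In the mice labelled Notch1+/- the 31 genes became 16 with a pseudocount of 0.1, 51 with a filter at 5 RPKM, 58 with a constant sum, 11 without the variance trend, 115 with array weights and 67 without the pair of mice with most distal heart muscle transcript. Leaving out 1 mouse gave 2 to 70. In wildtype mice the 21 genes became 39 with median-of-ratios scaling, 39 with quantile normalization and 55 without that pair, and 2 to 20 with 1 mouse left out. The averaged count of 233 became 39 to 197 with 1 mouse left out; its alternatives, and those of the count at an unadjusted p under 0.05 and of the median, were chosen after seeing the data. That count was 225 of 7250 genes with the filter at 5 RPKM and 1402 with array weights. With no replicate block, genotype dependence gave 0 called genes (507 at an unadjusted p under 0.05), and location gave 44 in the mice labelled Notch1+/-, 41 in wildtype mice and 260 on the average. Where 2 mice of a genotype are left, the fit pools the spread of both genotypes. Depth limits genes at the floor, whose dependence rests on a constant in those libraries, and short genes, which can lie above the floor with 1 read.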
